A study of Homo sapiens with 4 samples.

Results

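The comparison of ALKBH5 knockdown with a scrambled shRNA in hypoxia covers every gene name in 1 table of 58735 rows. For each repeated name the row with the highest mean FPKM (fragment counts scaled by gene length and library depth, the deposited unit) was taken, which left 57169 genes, of which 23451 had at least 1 read and 10925 reached 1 FPKM on average. Those 10925 genes are called tested genes here. RNA-seq was run on 4 groups of cells of the established glioblastoma line U87 (human), 1 library each. The 2 compared here come from cells carrying a scrambled shRNA (shScr) and cells carrying an shRNA against ALKBH5 (shALKBH5). Both were kept in hypoxia at 1% O2, in the same serum-containing medium. The other groups are wild-type (WT) cells without a listed shRNA in normoxia and in hypoxia, which stand in a separate table and serve only as values beside these. The shRNA sequences, the number of hairpins or clones and the length of the hypoxia are not given in the labels. There is 1 library a side, so no difference below has a replicate check and no p-value is given.

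ALKBH5 is an iron- and oxygen-dependent dioxygenase that removes the methyl group from N6-methyladenosine (m6A), the most common internal mark of messenger RNA. The mark is written by a complex around METTL3 and METTL14, erased by ALKBH5 and FTO, and bound by reader proteins that change splicing, export, translation or decay of the RNA. In glioblastoma, ALKBH5 is known for the upkeep of stem-like cells, and hypoxia is a regular feature of the tumour. RNA-seq of this kind measures the amount of each RNA, not its methylation, so which of the genes below carry m6A in these cells is not in the data.

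ALKBH5 (ENSG00000091542), the targeted gene, had 186 FPKM in the shScr library (8814 reads) and 113 FPKM in the shALKBH5 library (5711 reads). The knockdown library thus kept 60.8% of the shScr level on the deposited scale. On the log2 scale it changed by -0.71, and the interval of its read ratio ran from -0.77 to -0.67. All changes below are log2(FPKM + 1) in shALKBH5 minus shScr, a scale that understates the change of scarce genes. The intervals are exact 95% binomial intervals of the ratio of reads, with no constant added, and cover counting error only. ALKBH5 did not pass the 2-fold rule used for all genes, a change of at least 1 or at most -1. Its change also lay inside the range of -0.85 to 0.71 that held most tested genes. Rescaling each library to the same sum of values (TPM) moved shALKBH5 up by 0.26 in log2 relative to shScr. Scaling to total reads moved it up by 0.18. The fall of ALKBH5 is therefore smaller on both of these scales than on the deposited one. In bulk RNA, less RNA in every cell and the loss of it from a share of the cells cannot be told apart.

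Among its relatives of the AlkB family, the knockdown target was not the gene with the largest change. ALKBH4, which acts on a methylated lysine of actin, went from 13.8 to 5.21 FPKM (-1.25, GC-adjusted -0.90), and 25.3% of its exon bases overlap ORAI2, so the source of part of its reads is uncertain. The mitochondrial family member ALKBH7 went from 47.1 to 28.5 FPKM (-0.70). FTO, the other m6A eraser, went from 3.85 to 3.03 FPKM (-0.27). Of 7 tested members of the eraser and AlkB list, 1 was at least 2-fold lower, and 0 after GC adjustment, where 3% of all tested genes were on the deposited scale, and 0 were higher, where 1.76% were. The 9 tested genes of the methyltransferase complex held no change of 2-fold. WTAP, the adaptor that places the complex in nuclear speckles, was lower at 7.05 and 4.26 FPKM (-0.62), while the catalytic partner METTL14 was at 1.03 and 1.83 FPKM (0.48). Of the 13 tested readers 0 passed the 2-fold rule. IGF2BP3, a cytoplasmic reader that stabilises its targets, had the largest value, with 2.91 and 6.27 FPKM (0.90), just short of the rule on the log2(FPKM + 1) scale, and YTHDC1, the nuclear reader, had 4.27 and 6.71 FPKM (0.55).

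Across all tested genes the RNA pool kept most of its shape. Of 10925 genes, 192 (1.76%) had a log2(FPKM + 1) change of at least 1 and 328 (3%) one of at most -1, together 520 or 4.76%. These shares are the reference for every list count below. The middle 50% of genes lay between -0.38 and 0.28, and 90% lay between -0.85 and 0.71. The split between higher and lower genes turned with the scale. The 2 libraries held 17859370 and 16780154 reads, and the divisors behind the FPKM values were 83.2% and 94.5% of those reads. Rescaling to TPM, in which the values of each library have the same sum, moved shALKBH5 up by 0.26 relative to shScr, and scaling to total reads moved it up by 0.18. Genes past the rule were 36.9% higher on the deposited scale, 61.2% with total reads and 74.5% with TPM. These shares differ by more than the shift, because the filter and the added 1 were applied on each scale. TPM values are larger numbers here, so 14344 genes passed the filter and the added 1 weighs less. Total reads left 10556 genes. On deposited FPKM a constant of 0.1 in place of 1 gave 45.3% higher. A gene is therefore called stable here when it passed the 2-fold rule on each of 5 scales, namely deposited FPKM, FPKM centred on the median gene, TPM, total reads and median-of-ratios size factors. The stable genes were 182 higher (1.67% of tested genes) and 181 lower (1.66%). TPM, total reads and centring all move shALKBH5 up from the deposited scale, so this rule is stricter for lower genes. The near-equal counts therefore depend on the scales chosen and are not a result about direction. For 470 of the 520 genes the read-ratio interval excluded 0 in the direction of the change, and for 357 it lay wholly beyond 2-fold. It excluded 0 for 70.0% of all tested genes. In the lowest expression group of 10 the median interval was 0.94 wide, and 0.12 in the highest. The interquartile range of the changes in the lowest group was 0.47. It spans the middle 50% on log2(FPKM + 1), so it cannot be set against a 95% interval of the read ratio.

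**Figure D1:**
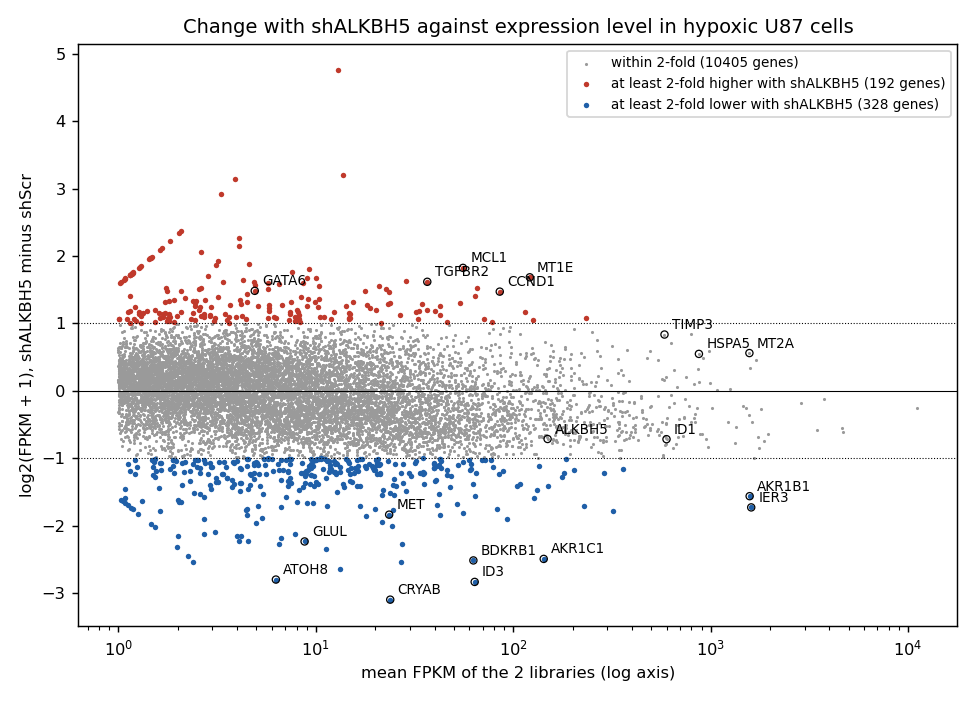
Change with shALKBH5 (log2(FPKM + 1), shALKBH5 minus shScr) against mean FPKM on a log axis for 10925 tested genes, 1 library a side; 192 red genes are at least 2-fold higher and 328 blue genes at least 2-fold lower on the deposited scale, and circles mark named genes. AKR1B1 and IER3 are the blue points at the highest expression, ALKBH5 lies within 2-fold, and the diagonal row of red points at the upper left is genes with 0 reads in shScr.

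The change of a gene tracked the GC content of its transcript. Over 9587 protein-coding genes, the Spearman correlation between the change and the GC content of the longest annotated transcript was -0.54, given as a description over genes that share 2 libraries. In the fifth of genes with the lowest GC content the median change was 0.27, and in the fifth with the highest it was -0.40. Lower genes made up 0.94% of the first group and 4.80% of the last. Higher genes went the other way, from 1.51% to 0.47%. In the WT table, the same property had a correlation of 0.22 with the change in hypoxia over 9262 genes, where the shRNA change of those genes had -0.55. Mean expression had a weaker relation, with a median change of 0.12 in the lowest of 10 equal groups and -0.34 in the highest. Genes were also sorted by the number of GGACT, the strongest form of the m6A consensus, per kilobase of transcript. The median change was 0.06 in the fifth with fewest and -0.23 in the fifth with most, with a correlation of -0.17 over genes. How this relates to GC content was not tested. Library composition and RNA quality were not tested as sources of the GC relation.

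**Figure D2:**
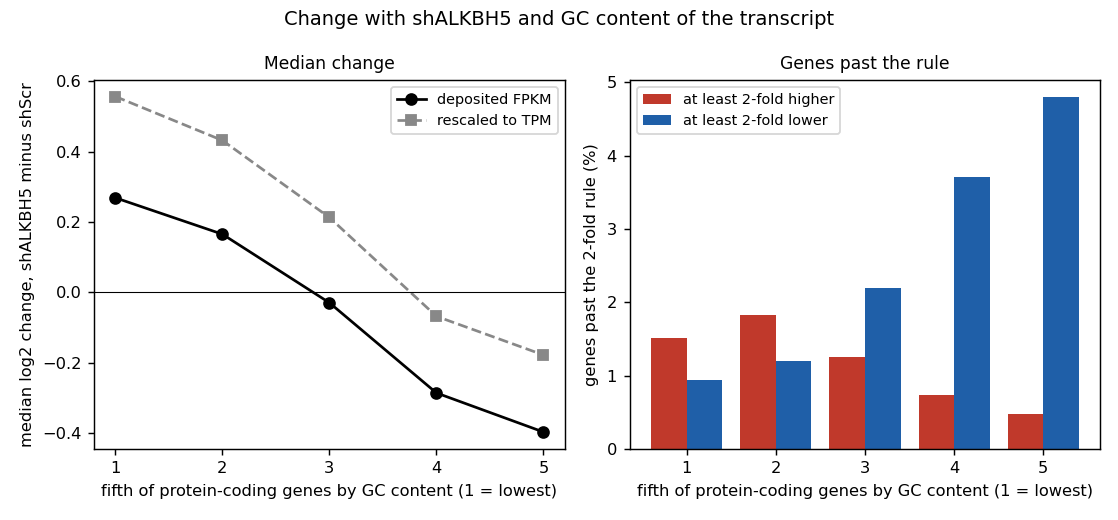
Left, median log2 change in 5 equal groups of 9587 protein-coding genes ordered by the GC content of the longest transcript, on deposited FPKM (circles) and TPM (squares); right, the percent of each group at least 2-fold higher (red) or lower (blue). The median falls from 0.27 to -0.40 on deposited FPKM, and lower genes grow from 0.94% to 4.80%.

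A GC-adjusted change is given beside many of the results: the change minus the median change of genes with like GC content, in 20 groups, a setting chosen after seeing the data. It gave 205 higher and 234 lower genes. Of the stable genes, 145 of 182 higher and 143 of 181 lower were also at least 2-fold after the adjustment. By chromosome, the medians ran from -0.35 on chromosome 19 (727 genes) to 0.21 on chromosome 13 (182 genes), leaving out the mitochondrial genome and unplaced sequences. Markers fitted the cell line in both libraries. All 8 glioma and mesenchymal markers were past the filter, with a summed 4779 and 4683 FPKM. Of 10 astrocyte and glial markers 1 was past the filter, 0 of 5 epithelial and 1 of 7 immune, with sums of at most 4.95 FPKM. Of 6 neuron markers 2 were past the filter, with 3.83 and 3.76 FPKM summed, and of 6 endothelial markers also 2, with 5.76 and 7.70 FPKM. GFAP, the filament that defines astrocytes, had 0.178 and 0.229 FPKM, and S100B and OLIG2 had 0 reads with shScr. Fibroblast and pericyte markers summed to 457 and 574 FPKM, carried by collagen genes that U87 cells express.

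The protein-coding genes with the largest falls included regulators of transcription. ID3, which binds bHLH transcription factors and keeps them off DNA, had 113 FPKM with shScr and 15.0 FPKM with shALKBH5 (-2.83, 3011 and 426 reads). ATOH8, a bHLH factor, had 11.7 and 0.831 FPKM (-2.80, 1060 and 80 reads). TLE1, a corepressor of the Groucho family, had 34.9 and 8.28 FPKM (-1.95). These genes stayed past 2-fold after GC adjustment, at -2.48, -2.55 and -1.60. BDKRB1, the bradykinin B1 receptor, had 108 and 18.0 FPKM (-2.52), though some of its 50-base windows also occur in another annotated gene. MET, the receptor of hepatocyte growth factor, had 37.4 and 9.74 FPKM (-1.84), and its GC-adjusted change was -2.05. SGK1, a kinase of the serum and glucocorticoid response, had 11.6 and 1.79 FPKM (-2.18).

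Secreted proteins were also among the lowest genes. CCL26, a chemokine for eosinophils, had 148 and 39.0 FPKM (-1.90). CSF1, the growth factor of macrophages, had 8.94 and 1.69 FPKM (-1.89). PTX3, a pattern-recognition protein, had 87.2 and 24.2 FPKM (-1.81), and CEMIP, which takes part in the breakdown of hyaluronan, had 38.7 and 10.7 FPKM (-1.76). Metabolic genes made up a further part of the 25 lowest. GLUL, which makes glutamine from glutamate and ammonia, had 15.1 and 2.43 FPKM (-2.23, 2032 and 348 reads). SLC6A9, a glycine transporter, had 23.7 and 2.96 FPKM (-2.64), and FASN, the fatty acid synthase, had 31.2 and 8.53 FPKM (-1.76). GRHPR, a glyoxylate reductase, had 13.4 and 2.32 FPKM (-2.12). The chaperones CRYAB (43.5 and 4.20 FPKM) and HSPA2 (46.1 and 8.75 FPKM) and the translation termination factor GSPT1 (129 and 37.5 FPKM) stood in the same list, and IER3, an early-response gene, had the most reads of the 25, 49739 and 15992. Each of the 25 was stable over the 5 scales and past 2-fold after GC adjustment.

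The 25 highest protein-coding genes held receptors, adaptors and secreted enzymes. MCL1, which holds back apoptosis at the mitochondrion, had 24.0 FPKM with shScr and 87.4 FPKM with shALKBH5 (1.82, 1558 and 6058 reads). TGFBR2, the type II receptor of TGF-beta, had 17.5 and 55.9 FPKM (1.62). FZD6, a Wnt receptor, had 290 and 1031 reads (1.55). IRS2, which couples insulin and IGF receptors to PI3-kinase, had 10.2 and 31.8 FPKM (1.55), and GRB14, an inhibitory adaptor of the insulin receptor, had 4.66 and 13.6 FPKM (1.37). Cell-cell contact and membrane genes were GJB2, a gap junction protein (33.2 and 97.5 FPKM), and PMP22, a myelin and membrane protein (11.3 and 34.2 FPKM). CCND1, the D-type cyclin of the G1 phase, had 44.9 and 126 FPKM (1.47), with 10.3% of its exon bases overlapping LTO1. MAT2A makes S-adenosylmethionine, the methyl donor for m6A, and its own transcript is a known substrate of the methyltransferase METTL16. It had 4.23 and 12.7 FPKM (1.39, 282 and 902 reads), with 12.4% of its exon bases overlapping GGCX. All 25 were stable over the 5 scales and past 2-fold after GC adjustment.

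**Figure D3:**
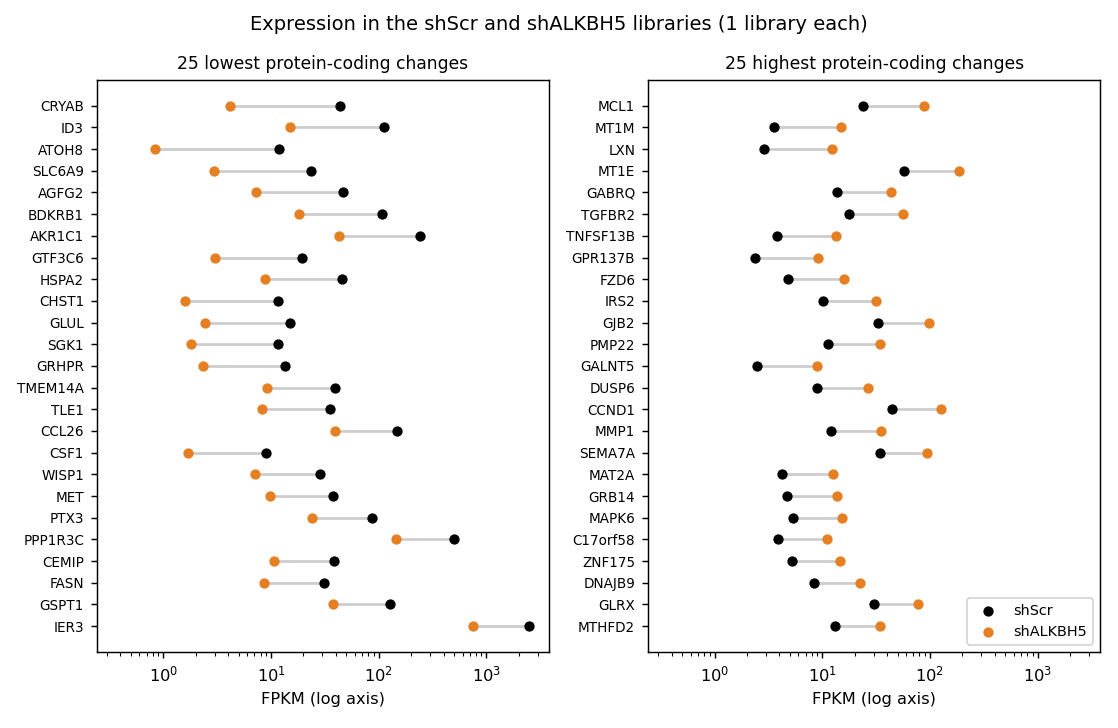
FPKM (log axis) in shScr (black) and shALKBH5 (orange), 1 library each, for the 25 lowest and 25 highest changes among protein-coding genes at 5 FPKM or more on average. CRYAB, ID3 and ATOH8 lead the falls, MCL1 and MT1M lead the rises, and IER3 at 2468 and 744 FPKM is the most abundant gene shown.

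The ID genes and other responders to bone morphogenetic protein (BMP) signalling were lower at different sizes. ID1 had 744 and 452 FPKM (-0.72), ID2 had 104 and 52.5 FPKM (-0.97) and ID4 had 5.54 and 3.50 FPKM (-0.54), beside the larger fall of ID3. BAMBI, a decoy receptor that BMP and TGF-beta signals induce, had 19.4 and 6.24 FPKM (-1.49). Of 16 tested genes on the list, 3 were at least 2-fold lower and 0 higher, beside 3% and 1.76% of all tested genes. Those 3, ID3, ATOH8 and BAMBI, were stable. The feedback genes SMAD6 (2.94 and 2.43 FPKM) and SMAD7 (7.97 and 7.67 FPKM), other targets of the same pathway, were near their shScr level. GREM1, a secreted BMP antagonist, had 23.6 and 40.3 FPKM (0.75). The list median was -0.33 beside -0.04 for all tested genes, and 0.01 after GC adjustment, so the list as a whole did not stand below genes of like GC content.

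TGF-beta genes went both ways. The ligand TGFB3 had 12.7 and 3.38 FPKM (-1.64), TGFB2 had 4.45 and 1.49 FPKM (-1.13, not past the rule on every scale) and TGFB1 had 421 and 266 FPKM (-0.66). The receptors moved in opposite directions, with TGFBR2 higher and TGFBR1 at 8.07 and 4.77 FPKM (-0.65). Of 14 tested genes, 1 was higher and 2 lower, beside 1.76% and 3% of all tested genes. The antisense RNA TGFB2-AS1 lies 557 bases from TGFB2 and had 17 reads with shScr and 1 with shALKBH5 (-1.46), too few to set its size. Whether counting used strand is not stated in these sources, and 26.4% of the 50-base windows of TGFB2 are shared with TGFB2-OT1. In the YAP and TEAD list, CYR61, a secreted matricellular protein, had 11.0 and 3.50 FPKM (-1.41), while CTGF, a target of the same factors, had 6.27 and 4.23 FPKM (-0.47). The other 13 tested members stayed within 2-fold.

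Cytokines and NF-kB feedback genes were lower in most members. NF-kB dimers are held in the cytoplasm by IkB proteins and induce both cytokines and their own inhibitors. NFKBIA, which encodes the inhibitor IkB-alpha, had 252 FPKM with shScr and 108 FPKM with shALKBH5 (-1.22, at -0.97 in TPM and GC-adjusted -1.03). NFKBIE, another inhibitor, had 14.5 and 6.75 FPKM and was just past the rule, though at -0.65 after GC adjustment. IRAK2, a kinase of Toll-like and interleukin 1 receptor signalling, had 13.7 and 5.18 FPKM (-1.25). The subunit NFKB1 had 3.15 and 1.10 FPKM (-0.98), whereas RELA had 38.2 and 38.9 FPKM. Of 18 tested genes, 5 were at least 2-fold lower and 0 higher, beside 3% and 1.76% of all tested genes. Of the 5, 3 were stable, and 14 of 18 were below 0. Members against the trend were ICAM1, an adhesion molecule (8.30 and 13.6 FPKM, 0.65), and TNFAIP3, a deubiquitinase that ends the signal (1.73 and 3.87 FPKM, 0.83). The list median was -0.67, and -0.30 after GC adjustment.

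In the chemokine and cytokine list, 4 of 14 tested genes were lower and 0 higher, beside 3% and 1.76% of all tested genes. Of the 4, 2 were stable, CCL26 and CSF1. IL11, a cytokine of the IL6 family, had 54.7 and 24.3 FPKM (-1.14, GC-adjusted -0.84), and LIF, of the same family, had 6.27 and 3.37 FPKM (-0.73). The interleukin 1 ligands stood on the other side. IL1B had 21.6 and 42.5 FPKM (0.94) and IL1A had 4.66 and 8.79 FPKM (0.79), both past 2-fold on the TPM scale. In class I antigen presentation 12 of 15 tested genes were below 0, with the immunoproteasome subunits PSMB8 (27.5 and 13.1 FPKM, -1.02, GC-adjusted -0.83) and PSMB9 (5.65 and 2.38 FPKM, -0.98) at the bottom, and B2M, the light chain of every class I molecule, at 372 and 369 FPKM. Of 11 tested interferon-stimulated genes none passed the rule. A further set of immune ligands was higher and was chosen after its values were seen. ULBP1, ULBP2 and ULBP3 encode ligands of the NKG2D receptor of natural killer cells and lie side by side on chromosome 6. ULBP1 had 3.51 and 9.96 FPKM (1.28), ULBP2 had 8.03 and 20.6 FPKM (1.26), and ULBP3 had 0.749 and 2.87 FPKM (1.15, 11 and 45 reads). They share 50-base windows with RAET1 genes, 32.2% in ULBP2, so their reads are partly uncertain.

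The promoter of NFKBIA is shown because it holds a classic NF-kB site and its gene was lower. A motif of GGG, any 2 bases, TT, any base and CC, on either strand, was in the 250 bases before the start of 11.2% of genes that were at least 2-fold lower (22 of 196 with a RefSeq promoter), 4.71% of those higher (4 of 85) and 6.03% of tested genes (476 of 7897), where 5.08% of all promoters in the table hold it. Among the 18 promoters found for the NF-kB list, 6 held it. The match, read on the opposite strand, is in capitals in the sequence from RefSeq (GRCh38.p14, chr14:35404750-35404999, minus strand), with its nearest base 72 bases before the start.
NFKBIA: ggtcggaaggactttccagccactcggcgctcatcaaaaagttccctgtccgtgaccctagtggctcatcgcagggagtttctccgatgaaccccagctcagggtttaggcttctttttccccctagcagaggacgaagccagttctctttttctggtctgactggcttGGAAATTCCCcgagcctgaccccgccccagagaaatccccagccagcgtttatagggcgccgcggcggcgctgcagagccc

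The aldo-keto reductases, which reduce aldehydes and ketones and include steroid-converting enzymes, held some of the largest changes in absolute FPKM. AKR1B1, aldose reductase, had 2356 FPKM with shScr and 797 FPKM with shALKBH5 (-1.56, 128188 and 46260 reads). AKR1C1 had 243 and 42.4 FPKM (-2.49), and AKR1C2 had 8.04 and 2.41 FPKM (-1.41). The neighbours AKR1C1 and AKR1C2 lie 4117 bases apart on chromosome 10 and share sequence, 28.7% of the 50-base windows of AKR1C1 and 52.2% of those of AKR1C2, so how the reads were divided between them is uncertain. AKR1C3, in the same cluster, had 28.3 and 15.6 FPKM (-0.82). Of 8 tested members 3 were lower and 1 higher, beside 3% and 1.76% of all tested genes, and each of these was stable. The higher one, AKR7A3, rested on 8 and 57 reads. The list median was -0.78, and -0.92 after GC adjustment. NRF2 targets outside the family did not share this size, with 1 of 20 lower, OSGIN1 (25.3 and 10.8 FPKM, -1.15, GC-adjusted -0.76), and 1 higher, the cystine transporter SLC7A11 (1.49 and 4.37 FPKM, 1.11, GC-adjusted 0.85). NQO1, a standard readout of NRF2, had 119 and 98.9 FPKM (-0.27).

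Genes of protein folding in the endoplasmic reticulum were mostly higher by less than 2-fold. The unfolded protein response senses misfolded proteins through IRE1, PERK and ATF6 and raises chaperones and degradation factors. DNAJB9, a chaperone partner that restrains IRE1, had 8.47 FPKM with shScr and 22.5 FPKM with shALKBH5 (1.31, 357 and 1011 reads), with 9.9% of its exon bases overlapping other genes. EDEM1, which sends misfolded glycoproteins to degradation, had 25.9 and 45.7 FPKM (0.80). The disulfide isomerase PDIA4 had 212 and 318 FPKM (0.59), and the transcription factor XBP1 had 29.6 and 44.3 FPKM (0.57). HSPA5, the main chaperone of the compartment, had 709 and 1037 FPKM (0.55, GC-adjusted 0.46). Of 24 tested members, 20 were above 0, 1 was at least 2-fold higher and 0 lower, beside 1.76% and 3% of all tested genes. The median was 0.47, and 0.29 after GC adjustment. HERPUD1 (74.3 and 54.8 FPKM, -0.43) and SDF2L1 (103 and 83.2 FPKM, -0.31), which the same response induces, were among the 4 below 0.

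The promoters of HSPA5 and XBP1 are shown because both hold an ER stress response element, the joint site of NF-Y and ATF6. CCAAT followed, after any 9 bases, by CCACG, on either strand, was in 6 of the 24 promoters of this list. It was in 0.165% of those of tested genes (13 of 7897), which take in the tested members of the list. No gene past the 2-fold rule held it (0 of 85 higher and 0 of 196 lower). Capitals mark the match, in RefSeq sequences of GRCh38.p14, chr9:125241344-125241593 (minus strand) for HSPA5 and chr22:28800598-28800819 (minus strand) for XBP1, the latter without the 28 bases inside the listed gene.
HSPA5: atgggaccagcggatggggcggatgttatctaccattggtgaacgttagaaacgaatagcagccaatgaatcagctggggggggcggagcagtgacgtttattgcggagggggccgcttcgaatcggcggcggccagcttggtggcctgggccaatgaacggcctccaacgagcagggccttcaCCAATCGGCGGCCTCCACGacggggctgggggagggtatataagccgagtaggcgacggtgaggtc
XBP1: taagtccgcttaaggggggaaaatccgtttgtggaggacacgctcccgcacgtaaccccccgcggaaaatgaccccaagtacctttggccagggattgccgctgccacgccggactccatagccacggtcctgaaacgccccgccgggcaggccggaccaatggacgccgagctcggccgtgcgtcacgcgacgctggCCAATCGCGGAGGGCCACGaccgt

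The amino acid response under ATF4, a factor whose translation rises when eIF2 is phosphorylated, held larger single changes. MTHFD2, of the mitochondrial folate pathway, had 13.3 and 34.2 FPKM (1.30). SESN2, an inhibitor of mTORC1, had 19.5 and 49.3 FPKM (1.29), and GDF15, a secreted stress hormone, had 11.9 and 28.6 FPKM (1.20). Of 27 tested genes 4 were higher and 1 lower, beside 1.76% and 3% of all tested genes, and the 4 were stable. The lower one was CBS (2.55 and 0.688 FPKM, -1.07, GC-adjusted -0.72), which shares 92.3% of its 50-base windows with its copy CBSL. Serine synthesis genes of the list stood low, with PHGDH at 84.2 and 44.0 FPKM (-0.92) and SHMT2 at 81.0 and 48.5 FPKM (-0.73). The p53 target list shared SESN2 and added GADD45A, a DNA damage gene (10.8 and 26.8 FPKM, 1.24), so that 2 of 19 were higher and 0 lower. CDKN1A, the best-known target, had 180 and 211 FPKM (0.22).

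Metallothioneins, small proteins that bind zinc and copper and respond to metals through the factor MTF1, were all on the high side. MT1E had 57.1 FPKM with shScr and 186 FPKM with shALKBH5 (1.68, 893 and 3097 reads). MT1M had 3.57 and 15.0 FPKM (1.81), and MT1X had 45.5 and 96.6 FPKM (1.07). MT2A, by far the most abundant, had 1271 and 1874 FPKM (0.56), and MT1F had 23.9 and 45.6 FPKM (0.90). MTF1 itself had 1.70 and 3.08 FPKM (0.60). The list of 13 genes includes MTF1 and SLC30A1. Of the 13, 9 were past the filter, 3 of them at least 2-fold higher and 0 lower, beside 1.76% and 3% of all tested genes. MT1A, MT1B and MT1H had 0 reads in both libraries. All 9 were above 0, and the median of 0.60 was 0.81 after GC adjustment. The metallothionein genes form a cluster on chromosome 16 and share sequence, 10.6% of the 50-base windows of MT1E and 14.7% of those of MT1X. Of the listed genes 10 also had a WT value, with a median change in hypoxia of 0.40, 3 at least 2-fold higher and 1 lower. The lower one was MTF1 or SLC30A1, since no metallothionein was 2-fold lower. MT1E was at 353 FPKM in normoxia and 269 FPKM in hypoxia (-0.39), while MT1X had a change of 2.11 and MT1F of 1.83. The largest WT change of the list was that of MT3, at 0.37 and 79.99 FPKM (5.89).

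The promoter of MT1X is shown because it holds 4 metal response elements, the site of MTF1. The core TGCNCNC, on either strand, was in 6 of the 7 promoters found for the metallothionein list, but also in 56.9% of those of tested genes. It was in 56.5% of promoters of higher genes and 55.6% of lower genes. The matches in the list include MT1B and MT1H, with 0 reads in both libraries, and MT4, with 0 and 2 reads. MT1E and MT1M had no promoter in the count. Capitals mark the matches in the 204 bases before the listed gene in the RefSeq sequence (GRCh38.p14, chr16:56682220-56682423, plus strand).
MT1X: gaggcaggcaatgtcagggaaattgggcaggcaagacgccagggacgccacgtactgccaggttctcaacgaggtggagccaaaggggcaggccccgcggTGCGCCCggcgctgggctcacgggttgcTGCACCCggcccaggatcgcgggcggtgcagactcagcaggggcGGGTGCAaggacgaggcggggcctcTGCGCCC

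Feedback genes of the ERK pathway, which growth factor signalling raises and which then dampen it, were mostly higher. DUSP6, a phosphatase for ERK, had 8.93 FPKM with shScr and 26.6 FPKM with shALKBH5 (1.47), and DUSP4, a nuclear phosphatase, had 13.1 and 33.5 FPKM (1.29). The Spred inhibitors SPRED1 (3.16 and 6.48 FPKM, 0.85) and SPRED2 (3.32 and 6.40 FPKM, 0.78) and the Sprouty gene SPRY2 (9.83 and 14.8 FPKM, 0.55) followed. Of 18 tested genes, 2 were at least 2-fold higher and 0 lower, beside 1.76% and 3% of all tested genes. The median was 0.43, and 0.56 after GC adjustment, with 15 genes above 0. TGFA, a ligand of the EGF receptor, had 24.6 and 60.2 FPKM (1.26), whereas the receptor EGFR had 15.1 FPKM in both. Immediate-early factors, which the same pathway induces within minutes, did not move as a group. EGR1 had 7.35 and 2.37 FPKM (-1.31) and KLF4 had 7.45 and 1.52 FPKM (-1.75), while EGR2 had 4.96 and 11.5 FPKM (1.07). In the IGF axis, IRS2 was higher and its relative IRS1 was at 16.9 and 7.96 FPKM (-0.99). IGFBP5, a binding protein, had 1.88 and 6.36 FPKM (1.35), and the 2 higher genes of 10 tested were stable.

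**Figure D4:**
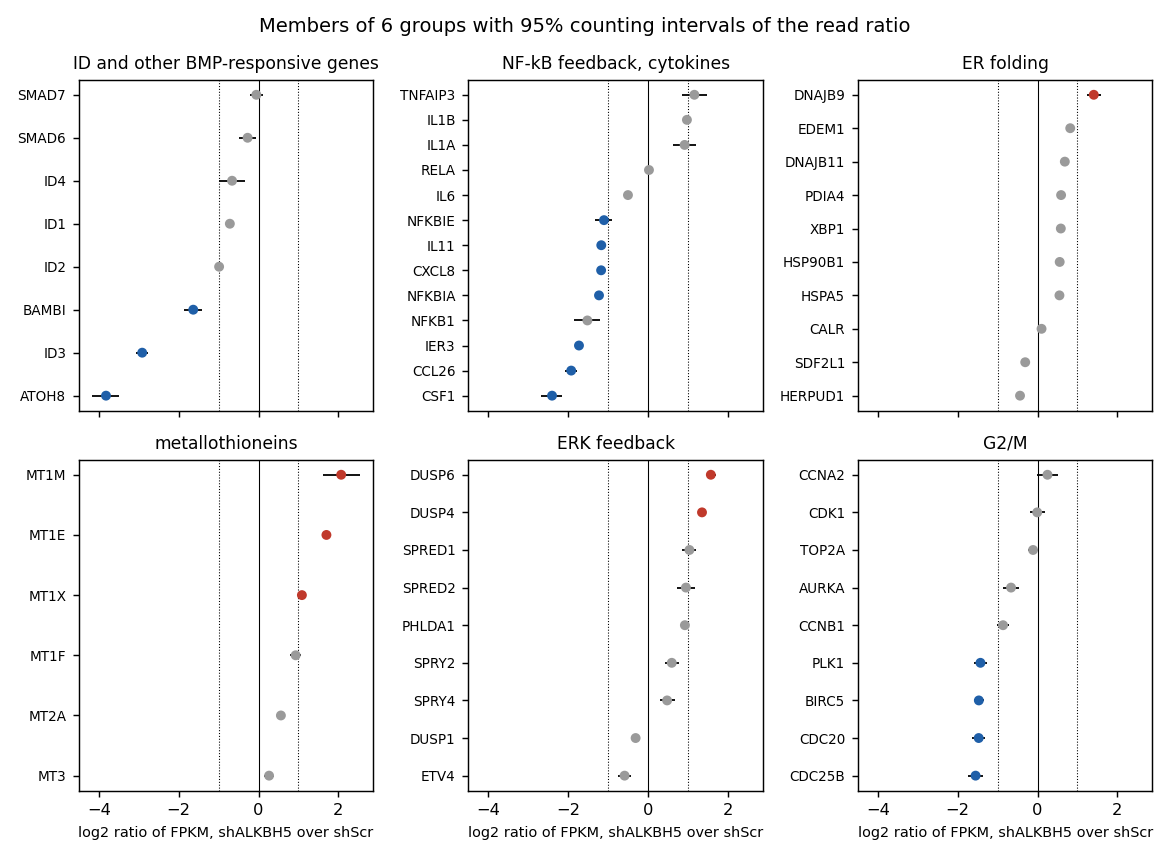
Log2 ratio of FPKM (shALKBH5 over shScr, no constant added) with 95% exact counting intervals as bars for members of 6 gene groups, 1 library a side; red and blue points passed the 2-fold rule on log2(FPKM + 1), grey points did not. ID3, ATOH8, IER3, CSF1 and CCL26 lie far to the left, metallothioneins all lie to the right of 0, and intervals of abundant genes are narrower than their points.

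Matrix glycoproteins and proteoglycans were mostly higher. SPARC, a collagen-binding glycoprotein, had 149 FPKM with shScr and 318 FPKM with shALKBH5 (1.08, 10728 and 24347 reads). FN1, fibronectin, had 176 and 324 FPKM (0.88), NID2, a basement membrane linker, had 10.9 and 22.1 FPKM (0.96), and VCAN, a large proteoglycan, had 7.32 and 14.0 FPKM (0.85). LUM, a small proteoglycan, had 0.917 and 3.84 FPKM (1.34). Of 18 tested genes, 2 were higher and 0 lower, beside 1.76% and 3% of all tested genes. Above 0 were 14, and the median was 0.61 with and without GC adjustment. Among 17 collagens none passed the rule on the deposited scale, and COL5A1 had 67.0 and 124 FPKM (0.88). The protease MMP1 had 12.1 and 34.9 FPKM (1.46), MMP3, another protease, had 23.2 and 11.1 FPKM, just short of the rule, and the inhibitor TIMP3 had 419 and 749 FPKM (0.84). Of 7 fibroblast and pericyte markers 5 were past the filter, and 4 of them, COL1A1, COL1A2, LUM and ACTA2, were above 0, while PDGFRB had 16.1 and 13.0 FPKM (-0.29). Their part in the result was not tested. TWIST1, a mesenchymal transcription factor, had 152 and 56.4 FPKM (-1.41) and SNAI2 had 118 and 66.5 FPKM (-0.82), while VIM, the intermediate filament of mesenchymal cells, had 552 and 638 FPKM.

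In the cell-cycle lists, a few mitotic genes were lower and most members stayed within 2-fold. CDC20, an activator of the anaphase-promoting complex, had 37.7 and 13.6 FPKM (-1.41). BIRC5, survivin, had 36.3 and 13.1 FPKM (-1.40), CDC25B, a phosphatase that activates CDK1, had 13.9 and 4.74 FPKM (-1.38), and PLK1, a mitotic kinase, had 16.5 and 6.11 FPKM (-1.30). These 4 of 27 tested G2/M genes were lower and stable, beside 1.66% of all tested genes, and PLK1 was at -0.94 after GC adjustment. Of the 27 genes 3 were above 0, and the median was -0.28, and -0.44 after GC adjustment. CCNB1, the mitotic cyclin, had 27.4 and 15.1 FPKM (-0.82), and FOXM1, a transcription factor of the phase, had 25.5 and 14.5 FPKM (-0.78). Members near their shScr level were CDK1 at 7.39 and 7.35 FPKM, TOP2A at 9.42 and 8.71 FPKM and CCNA2 at 5.22 and 6.20 FPKM. The G1/S list held CCND1 as the one member past the rule, while the replicative helicase subunit MCM2 had 8.59 and 4.87 FPKM (-0.71) and RRM2, of ribonucleotide reductase, had 4.35 and 7.22 FPKM (0.62). The cell-cycle homology region TTTGAA, a promoter element of G2/M genes, was sought on either strand. It was in 13.3% of promoters of lower genes, 8.24% of higher genes and 8.02% of tested genes, but also in 13.6% of all promoters. In the BCL2 family MCL1 was the 1 gene of 11 past the rule, beside 4.76% of all tested genes. The pro-apoptotic BAD had 76.3 and 39.6 FPKM (-0.93).

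Most glycolysis and ribosomal protein genes were lower by less than 2-fold. Of 17 glycolysis genes 15 were below 0, with a median of -0.46 and -0.26 after GC adjustment. PKM, pyruvate kinase, had 1675 and 983 FPKM (-0.77), and ALDOC, a brain-type aldolase, had 96.9 and 46.9 FPKM (-1.03, GC-adjusted -0.74). Ribosomal protein genes had medians of -0.36 in the large and -0.44 in the small subunit, with 0 of 79 past the rule. The 13 protein-coding genes of the mitochondrial genome were all below 0 on the deposited scale, though not all in TPM, for example MT-CO2, of cytochrome oxidase, at 2252 and 1246 FPKM (-0.85), while the mitochondrial ribosomal RNA MT-RNR2 had 567 and 1017 FPKM (0.84). Reads of the mitochondrial genome were 0.931% of the total in shScr and 0.819% in shALKBH5. Larger single changes were PPP1R3C, a subunit that brings protein phosphatase 1 to glycogen (498 and 144 FPKM, -1.78), and SQLE, the squalene epoxidase of cholesterol synthesis (79.4 and 24.2 FPKM, -1.67). INSIG1, a brake on sterol synthesis, had 75.8 and 120 FPKM (0.66).

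**Figure D5:**
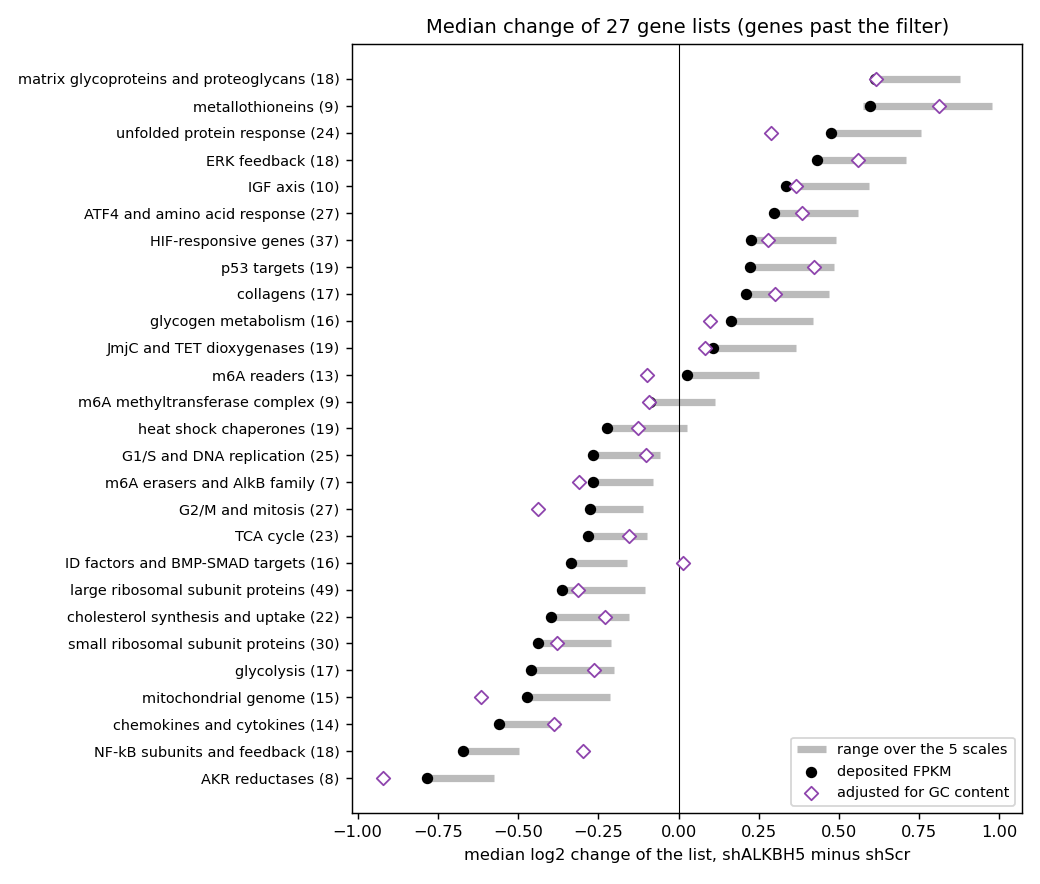
Median log2 change of 27 gene lists (number of tested genes in brackets) on deposited FPKM (black), its range over 5 scales (grey bar) and after adjustment for GC content (diamond). Matrix glycoproteins and metallothioneins lie highest and AKR reductases lowest; the bars of the methyltransferase complex and heat shock chaperones cross 0, the medians of m6A readers and ID genes change sign with GC adjustment, and NF-kB genes move from -0.67 to -0.30.

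RNA-binding proteins differed by family. Paraspeckles are nuclear bodies built on the long RNA NEAT1, and their protein SFPQ had 19.3 and 9.08 FPKM (-1.01), not past the rule on every scale. TARDBP, a related RNA-binding protein, had 14.3 and 7.59 FPKM (-0.84), and RBM14 had 6.39 and 10.7 FPKM (0.67). Among splicing factors, TRA2A had 3.48 and 7.75 FPKM (0.97), SRSF5 had 14.4 and 28.4 FPKM (0.93) and SRSF7 had 2.61 and 5.16 FPKM (0.77), whereas the hnRNP gene HNRNPM had 47.1 and 29.6 FPKM (-0.65). None of the 25 tested SR and hnRNP genes passed the rule. In the JmjC and TET dioxygenases, enzymes with the same cofactors as ALKBH5, TET3 had 2.14 and 6.83 FPKM (1.32). It was the 1 gene of 19 past the rule, beside 4.76% of all tested genes.

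Transcription factor genes, by the family the authors' deposited table assigns, numbered 690 among tested genes, of which 9 were higher (1.30%) and 19 lower (2.75%), near the 1.76% and 3% of all tested genes. The bHLH family held 3 of the 9 and 5 of the 19, from 43 tested genes (6.98% and 11.6%). Genes of this group outside the lists were chosen after their values were seen. GATA6, a factor of endoderm and heart that is also studied in glioma, had 2.11 and 7.71 FPKM (1.48, 124 and 482 reads), whereas GATA2 had 7.18 and 2.11 FPKM (-1.40). HES1, a target of Notch, had 4.89 and 11.4 FPKM (1.07), and AHR, the aryl hydrocarbon receptor, had 1.65 and 4.43 FPKM (1.04, GC-adjusted 0.74). HMGA2, a chromatin protein of fetal cells, had 4.20 and 10.6 FPKM (1.16, GC-adjusted 0.87). On the lower side, SOX7 had 101 reads with shScr and 2 with shALKBH5, and BCL6, a repressor, had 14.2 and 5.33 FPKM (-1.26). The subunit HIF1A had 120 and 50.6 FPKM (-1.23), lower on the deposited scale but at -0.98 in TPM.

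Genes that respond to hypoxia went both ways. CITED2, which competes with HIF for its coactivators, had 26.3 and 58.7 FPKM (1.13), and P4HA1, a collagen prolyl hydroxylase, had 198 and 335 FPKM (0.76). EGLN3, an oxygen sensor that HIF induces, had 14.8 and 29.1 FPKM (0.93), whereas the glycolytic activator PFKFB3 had 456 and 247 FPKM (-0.88). Of 37 tested HIF-responsive genes 27 were above 0, with a median of 0.22 and 0.28 after GC adjustment. Of the 37, 2 were higher (1 after GC adjustment) and 0 lower, beside 1.76% and 3% of all tested genes. In the WT table, 34 of these genes had a median change in hypoxia of 3.09. Of the stable genes that also had a WT value, 29 of 101 higher genes (28.7%) were at least 2-fold higher in WT hypoxia and 9 lower (8.91%), and 16 of 116 lower genes (13.8%) were higher and 20 (17.2%) lower. All tested genes with a WT value held 8.04% and 13.1%. The hypoxia response element core ACGTG, on either strand, was in 22.4% of promoters of lower genes, 21.2% of higher genes and 24.9% of tested genes.

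Some genes past the rule neighbour each other along a chromosome. Adjacent here means next among tested genes, so some pairs lie far apart, such as SRI and STEAP1 with 1927382 bases between them. Of 10894 pairs of adjacent tested genes 40 had both members past the rule, 31 of them in the same direction. Of the 40, 8 overlapped, so that reads of 1 gene may count in the other. Single genes past the rule were 4.76%, and how many pairs that share alone would give was not tested. On chromosome 7, TSC22D4 (192 and 63.1 FPKM, -1.59), NYAP1 (-1.22, GC-adjusted -0.82) and AGFG2 (46.7 and 7.20 FPKM, -2.54) lie in a row. On chromosome 16, CTRB2 (-1.90, 169 and 21 reads), CTRB1 (-2.10, 183 and 19 reads) and the pseudogene AC009078.2 (-2.23, 158 and 18 reads) do so. Next to them is BCAR1, an adaptor of integrin signalling (80.5 and 39.2 FPKM, -1.02, GC-adjusted -0.63). AC009078.2 overlaps both of its neighbours. CTRB2 shares 20.2% of its 50-base windows, most with CTRB1, and CTRB1 shares 18.0%, most with AC009078.2. How reads were divided among these genes is therefore uncertain. MRPS6 and SLC5A3 overlap on chromosome 21 and were both lower. The frizzled receptor FZD6 and its neighbour CTHRC1, a secreted Wnt modulator (1.27), were both higher, on chromosome 8.

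Non-coding genes past the rule rested mostly on few reads. Of 291 tested lincRNAs 16 were higher and 14 lower, and of 319 antisense genes 8 were higher and 13 lower. All tested genes held 1.76% higher and 3% lower. Among microRNA genes 20 of 60 were higher and 10 lower, and among small nuclear RNAs 8 of 15 were higher and 3 lower, but these short genes pass the filter with a handful of reads and many have copies. The lincRNA AC079949.1 had 3.82 and 14.3 FPKM (1.67, 35 and 140 reads), and its neighbour AC079949.2 on the other strand was higher too (1.14, GC-adjusted 0.88). Mitochondrial transfer RNAs were lower in 5 of 9 genes, beside 3% of all tested genes. NEAT1 had 2.08 and 5.19 FPKM (1.01, GC-adjusted 0.88, 704 and 1873 reads), with a counting interval from 1.19 to 1.45.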

How the data were processed

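RNA-seq libraries of U87 cells were read as the FPKM values the authors deposited, in 1 table for the 2 shRNA libraries and another for the 2 wild-type libraries. The aligner and the counter are named in none of the sources used. The submitters' processing notes name genome build hg19, whereas the start and end of 58724 of 58735 rows equal those of GENCODE release 29 on GRCh38, so chromosomes are given here and gene coordinates are not. Samples were mapped by their titles, and 0 deposited columns were left unused. FPKM times listed gene length gave whole reads for 100% of values within 0.01, from which depth (17859370 and 16780154 reads) and intervals come. These reads are fragments without molecular identifiers, so intervals cover counting error only.

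Changes are log2(FPKM + 1) for genes averaging 1 FPKM or more, and genes past 2-fold were counted, with no test, since there is 1 library per group. The deposited divisor is below the total of reads, which is why other scales were computed: median-centred, TPM, total reads and median-of-ratios. No fold is given for a gene with 0 reads in a library. The calculation was tested on simulated data. Named genes are the 25 highest and 25 lowest protein-coding changes at a mean of at least 5 FPKM, up to 6 members per list with the largest changes, and genes set by name. List members outside that rule, transcription factors and neighbouring genes were chosen after their values were seen. The comparison, its members and the 60 gene lists were chosen with earlier results of these data known. Promoter sequences are from RefSeq (GRCh38.p14), where 7897 of 10925 tested genes matched by symbol or Ensembl identifier, and the window is the 250 bases before the start. GC content, exon overlap and shared 50-base windows come from GENCODE release 29. Alternatives were another pseudocount, filters, scales, gene classes and size rules. The tools were matplotlib 3.10.9, scipy 1.17.1, pandas 2.3.3, numpy 2.4.6 and Python 3.11.15. Some results are not reported here.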

Additional observations from a re-analysis of the deposited data

How the results depend on the processing

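No paired analysis was possible because each group has 1 library, and no replicate could be left out. Of 192 higher and 328 lower genes on deposited FPKM, a pseudocount of 0.1 FPKM gave 440 and 531, a mean of at least 5 FPKM gave 82 and 218, a 1.5-fold rule gave 928 and 1489 and a 3-fold rule gave 50 and 66. TPM gave 1204 higher and 413 lower among 14344 genes, total reads gave 286 and 181, and protein-coding genes alone gave 112 and 247. Without a filter 260 and 376 were counted, and with at least 50 reads 140 and 274. Median-centring gave 217 and 286, median-of-ratios 175 and 292, and summing repeated rows 192 and 328. Adjustment for GC content, chosen after seeing the data, gave 205 and 234. The causes of these shifts were not tested beyond the construction of each setting.

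Of 123 named genes past the rule, 107 were still past it in TPM, 108 with total reads, 118 after centring, 120 with median-of-ratios and 106 after GC adjustment, and none changed sign in these settings. Of 60 list medians, 24 changed sign in TPM, 15 with total reads, 13 with GC adjustment and 3 after centring. Genes with under about 50 reads, such as most short RNAs, have wide intervals. With 1 library a side, the difference between cultures cannot be told apart from that between shRNAs.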
